A study of Mus musculus with 27 samples.

Results

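The Th1 axis was followed here through 10 genes read by 13 probe sets: *Ifng*, *Tbx21*, *Stat4*, *Il12a*, *Il12b*, *Il12rb1*, *Il12rb2*, *Il18rap*, *Irf1* and *Irf8*. They were chosen by name, and every probe set annotated to a single one of them was taken, out of 45101 probe sets and 18193 genes on the array. *Il12b*, *Il18rap* and *Irf8* were each read by 2 probe sets, the others by 1. The RNA came from homogenized full-thickness mouse colon on 27 arrays, with 3 arrays in each of 9 groups. The groups were Il10-/- mice raised conventionally, Il10-/- mice raised under specific pathogen free (SPF) conditions, and wild-type mice raised conventionally, each sampled when 7, 9 or 12 weeks old. There was no SPF wild-type group, so genotype and housing change together between SPF knockouts and wild types. The submitters picked the 3 replicates of each group by colon length and colonic damage, the labels give no strain, and they do not say whether animals were pooled. P-values therefore measure the spread between these selected samples.

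In the Th1 pathway, dendritic cells and macrophages release interleukin-12, a pair of the subunits p35 (*Il12a*) and p40 (*Il12b*). On T and NK cells it binds a receptor made of the chains IL-12Rβ1 (*Il12rb1*) and IL-12Rβ2 (*Il12rb2*), which signals through STAT4. Interleukin-18 acts beside it through a receptor that includes the accessory chain encoded by *Il18rap*. T-bet (*Tbx21*) is the transcription factor that defines Th1 cells and drives *Ifng*. Interferon gamma in turn acts on many cell types and induces IRF1, while IRF8 is a factor of myeloid cells that interferon gamma also induces and that takes part in *Il12b* transcription. Interleukin-10 restrains this circuit in the colon by acting on macrophages and dendritic cells, and Il10-/- mice are a common model of bacteria-driven colitis.

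Interferon gamma signals reach promoters through the gamma-activated site (GAS), to which STAT dimers bind, so the 250 bases upstream of each annotated start were searched for TTCNNNGAA, which reads the same on both strands. RefSeq promoters on GRCm38.p6 were given for 9 of the 10 genes, 13 starts in all. At least 1 match was found at 4 of the 13 starts, against 7.02% of 32851 RefSeq promoters of the same length. These 4 are shown because they cover both ends of the expression data: *Irf1* and *Irf8* passed against wild types in the most comparisons, *Ifng* had the largest difference, and *Il12rb2* passed the test in none. Each is the stretch just before an annotated start of the gene, for *Irf1* and *Irf8* the first of 2. Capitals mark the GAS letters. The stretches are chr11:53769764-53770013 (plus strand, *Irf1*), chr8:120736108-120736357 (plus strand, *Irf8*), chr10:118440796-118441045 (plus strand, *Ifng*) and chr6:67376189-67376438 (minus strand, *Il12rb2*).
Irf1: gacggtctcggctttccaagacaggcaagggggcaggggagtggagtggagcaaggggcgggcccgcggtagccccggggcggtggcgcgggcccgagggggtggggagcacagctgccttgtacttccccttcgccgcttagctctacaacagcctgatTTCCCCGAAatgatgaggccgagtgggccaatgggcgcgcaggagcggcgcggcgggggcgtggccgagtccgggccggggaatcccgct
Irf8: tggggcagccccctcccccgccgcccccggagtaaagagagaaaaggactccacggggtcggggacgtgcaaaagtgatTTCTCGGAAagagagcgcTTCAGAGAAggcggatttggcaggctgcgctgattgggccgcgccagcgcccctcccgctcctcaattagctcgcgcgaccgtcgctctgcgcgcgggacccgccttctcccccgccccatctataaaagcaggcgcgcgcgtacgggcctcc
Ifng: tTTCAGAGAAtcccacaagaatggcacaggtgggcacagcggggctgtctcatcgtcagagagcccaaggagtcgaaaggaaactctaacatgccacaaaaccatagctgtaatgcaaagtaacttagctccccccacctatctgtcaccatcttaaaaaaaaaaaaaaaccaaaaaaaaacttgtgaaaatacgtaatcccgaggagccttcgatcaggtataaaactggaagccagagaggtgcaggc
Il12rb2: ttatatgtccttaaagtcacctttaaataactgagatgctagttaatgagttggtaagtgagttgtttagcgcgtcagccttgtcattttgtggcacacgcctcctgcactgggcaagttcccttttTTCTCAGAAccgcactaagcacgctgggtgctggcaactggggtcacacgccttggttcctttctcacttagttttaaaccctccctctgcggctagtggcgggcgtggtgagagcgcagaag
The *Irf1* match TTCCCCGAA lay 90 to 82 bases before the start. *Irf8* held 2 matches, TTCTCGGAA at 171 to 163 bases and TTCAGAGAA at 153 to 145 bases before the start shown. The second annotated start of *Irf1* and that of *Irf8* had no GAS match. The same letters, TTCAGAGAA, stood 249 to 241 bases before the *Ifng* start, and the *Il12rb2* match TTCTCAGAA lay at 123 to 115 bases. An IRF-type pair, searched as GAAANNGAA on both strands and found in 7.13% of all promoters, occurred once, before the second *Stat4* start (GAAAGTGAA, 97 to 89 bases before it). The T-box letters TCACACC, in 3.33% of all promoters on either strand, were found before none of the 13 starts. A match is a run of letters, not a measured binding site, and its absence says nothing about the factor.

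The deposited values are log2 expression on one scale for all 27 arrays, so a difference of 1 is a doubling. All tests are limma contrasts from 1 fit over 18193 genes, each read by its brightest probe set, with Benjamini-Hochberg adjustment over all of them and calls at an adjusted p below 0.05. Array medians lay between 4.92 and 4.99, and the rank correlation between arrays was 0.953 to 0.993. *Il10* itself was at 4.66 to 7.09 in the 18 knockout arrays and 3.51 to 3.83 in the 9 wild-type arrays. No knockout array fell in the wild-type range, but where that probe set lies relative to the deleted part is not given, so it does not check the deletion. The housing groups did not keep their order with age: the mean log2 of 6 neutrophil markers was 6.31 to 7.39 in conventional knockouts and 3.70 to 6.47 in SPF knockouts at 9 weeks. At 12 weeks it was 3.65 to 3.80 in conventional knockouts and 5.14 to 8.97 in SPF knockouts.

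*Ifng*, the effector cytokine of Th1 and NK cells, was near the low end of the array in all wild types and rose in 2 knockout groups, at 9 weeks under conventional housing and at 12 weeks under SPF housing. The 3 conventional knockouts at 9 weeks read 6.82, 4.68 and 3.27 log2 units, against 2.73, 2.78 and 2.84 in wild types of that age. All 3 knockouts lay above all 3 wild types, but they spanned a wide range among themselves. The difference was 2.14 ± 0.69 (log2, SE; limma adjusted p = 0.0265). It rested on few arrays: without replicate 1 of the conventional knockouts it was 1.19, and the call was also lost without replicate 2 of that group or without any 1 of the wild-type arrays, with adjusted p up to 0.238. The SPF knockouts at 12 weeks read 6.75, 3.86 and 7.41, against 2.91, 2.92 and 2.60 in wild types. Replicate 2 was the low one, yet it was still above every wild-type array. This difference, 3.20 ± 0.69 (limma adjusted p = 0.00113), was the largest of any of the 10 genes against wild types. Fitted on the compared arrays alone, neither *Ifng* difference passed (limma adjusted p = 0.0556 at 12 weeks and 0.0586 at 9 weeks). In bulk tissue such a rise cannot be told apart from a change in how many cells make the transcript.

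The remaining groups were quiet for *Ifng* or held a single high array. SPF knockouts at 9 weeks read 2.76, 3.31 and 4.56, and the difference from wild types, 0.76 ± 0.69, did not pass (limma adjusted p = 0.509). Conventional knockouts at 12 weeks read 2.76, 2.72 and 2.71, within the wild-type range, and differed from wild types by -0.08 ± 0.69. The contrast between the housing conditions at 12 weeks was therefore wide, -3.27 ± 0.69 for conventional minus SPF knockouts (limma adjusted p = 0.00304), with no overlap between the groups. At 7 weeks the conventional knockouts read 3.02, 2.61 and 3.32, the SPF knockouts 2.72, 2.79 and 2.95, and the wild types 2.74, 2.82 and 2.73. These 3 groups overlapped and no *Ifng* contrast at that age passed.

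**Figure D1:**
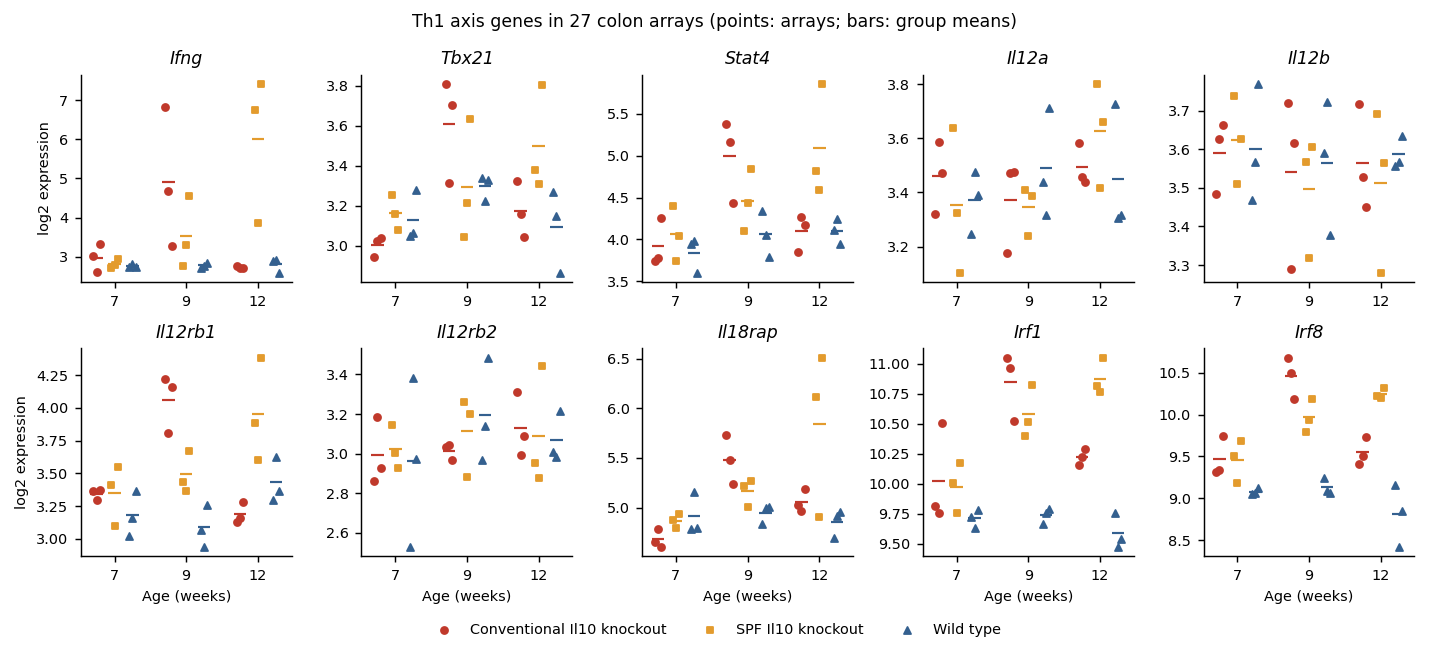
Log2 expression (y axes, each with its own range) of the 10 genes by age in weeks (x axis); points are single arrays and bars are means of 3 arrays, with conventional knockouts as red circles, SPF knockouts as orange squares and wild types as blue triangles. *Ifng*, *Stat4*, *Il12rb1* and *Irf8* stand high in conventional knockouts at 9 weeks and SPF knockouts at 12 weeks, whereas *Il12a*, *Il12b* and *Il12rb2* move within a narrow band.

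Of the genes for interleukin-12 itself, *Il12a* passed nowhere and *Il12b* passed on 1 of its 2 probe sets. *Il12a*, the p35 subunit, stayed between 3.10 and 3.80 in all 27 arrays. Its means were 3.37 ± 0.17 in conventional knockouts and 3.49 ± 0.20 in wild types at 9 weeks, and 3.63 ± 0.19 in SPF knockouts and 3.45 ± 0.24 in wild types at 12 weeks (SD, n = 3 each). For *Il12b*, the p40 subunit shared with interleukin-23, the 2 probe sets did not give the same answer. The brighter one (1449497_at), used in the fit over genes, stayed between 3.28 and 3.77 and passed nowhere. The dimmer one (1419530_at) read 3.67, 3.24 and 3.30 in conventional knockouts at 9 weeks, against 2.80, 2.92 and 2.79 in wild types. These groups did not overlap, and in a fit over all 45037 non-control probe sets the difference was 0.57 ± 0.13 (limma adjusted p = 0.00378), in a contrast where 17.1% of probe sets passed. The brighter probe set gave -0.02 ± 0.13 in the same contrast. In SPF knockouts at 12 weeks the dimmer probe set read 3.10, 2.98 and 3.51, and its difference from wild types, 0.20 ± 0.13, did not pass (limma adjusted p = 0.267). Of all probe sets, 26.4% passed in that contrast. For conventional minus SPF knockouts at 12 weeks it was -0.38 ± 0.13 (limma adjusted p = 0.0415), where 16.7% of all probe sets passed. Within conventional knockouts it was higher at 9 than at 7 weeks (0.58 ± 0.13, limma adjusted p = 0.00959, beside 6.53% of all probe sets). It was lower at 12 than at 9 weeks (-0.59 ± 0.13, limma adjusted p = 0.0131, beside 4.08%).

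Values between about 3 and 4 lie well below the array medians, and no detection calls were used, so for the interleukin-12 subunits an unmoved reading does not show an unchanged transcript. The wild-type readings of *Ifng* and *Il12rb1* lie in the same low range, which also limits the size of their differences. In conventional knockouts at 9 weeks and SPF knockouts at 12 weeks both probe sets of *Irf8* and both of *Il18rap* read above wild types on average, though 1 of the *Il18rap* pair did not pass at 9 weeks.

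**Figure D2:**
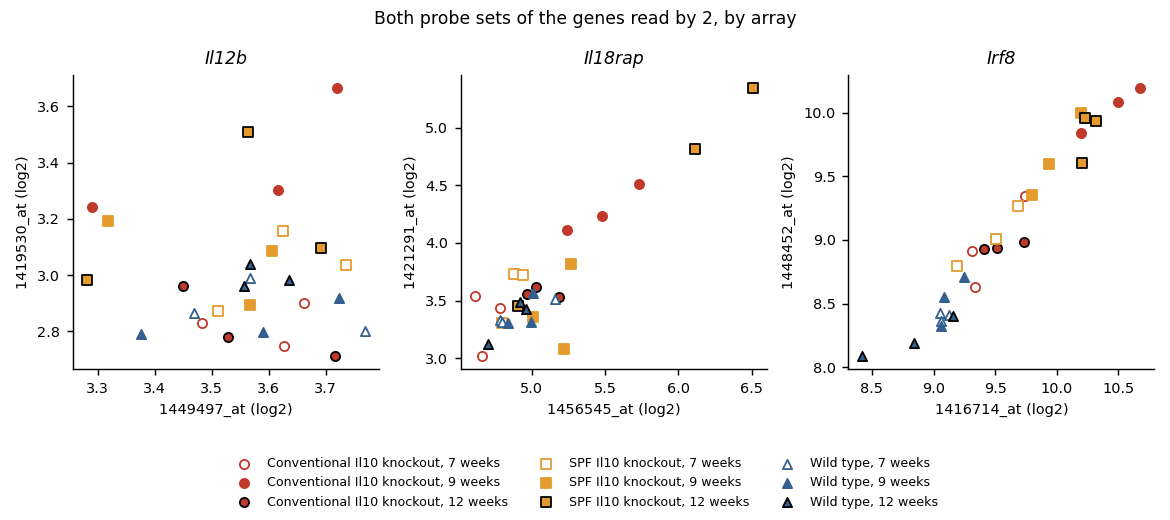
The 2 probe sets of *Il12b*, *Il18rap* and *Irf8* against each other (log2 expression on both axes, brighter probe set on x), 1 point per array, with shape and colour for the group, open symbols for 7 weeks and black outlines for 12 weeks. The *Irf8* points run along a line, the *Il18rap* points do so in the arrays where the gene is high, and the *Il12b* points form no line: only the dimmer probe set separates the conventional knockouts at 9 weeks (3.24 to 3.67) from the wild types of that age (2.79 to 2.92).

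Among the receptor chains, *Il12rb1* and *Il18rap* rose and *Il12rb2* did not pass in any comparison. *Il12rb1*, the chain shared by the interleukin-12 and interleukin-23 receptors, read 4.22, 3.81 and 4.16 in conventional knockouts at 9 weeks, against 3.07, 2.94 and 3.26 in wild types. The groups did not overlap, and the difference was 0.97 ± 0.16 (limma adjusted p = 0.000339). At 12 weeks it read 3.88, 3.60 and 4.38 in SPF knockouts and 3.30, 3.63 and 3.37 in wild types. There 1 SPF array fell inside the wild-type range, and the difference was smaller, 0.52 ± 0.16 (limma adjusted p = 0.0148). The call was lost without replicate 3 of the SPF knockouts or replicate 1 of the wild types, with adjusted p up to 0.146. In conventional knockouts at 12 weeks *Il12rb1* was back at 3.13, 3.16 and 3.28, all below the 3 SPF knockouts of that age (-0.76 ± 0.16, limma adjusted p = 0.00311).

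*Il12rb2*, the chain that carries the STAT4 docking site, stayed between 2.53 and 3.48 in all arrays. Its means at 9 weeks were 3.02 ± 0.04 in conventional knockouts and 3.20 ± 0.26 in wild types, and at 12 weeks 3.09 ± 0.31 in SPF knockouts and 3.07 ± 0.13 in wild types (SD, n = 3 each). *Il18rap*, whose product joins the interleukin-18 receptor complex, read 6.12, 4.91 and 6.51 in SPF knockouts at 12 weeks, against 4.70, 4.92 and 4.96 in wild types. Replicate 2, the SPF array that was lowest in *Ifng*, lay inside the wild-type range, while the other two stood far above it. The difference was 0.98 ± 0.24 (limma adjusted p = 0.00268). At 9 weeks the conventional knockouts read 5.73, 5.48 and 5.24 and the wild types 4.84, 5.0 and 5.01, without overlap, but the difference of 0.54 ± 0.24 did not pass (limma adjusted p = 0.104). The second *Il18rap* probe set (1421291_at) read 4.51, 4.24 and 4.11 in those knockouts and 3.31, 3.31 and 3.56 in those wild types, and it did pass among all probe sets (0.89 ± 0.29, limma adjusted p = 0.0335).

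*Stat4*, the signal transducer below the interleukin-12 receptor, followed the same 2 groups. It read 5.38, 5.16 and 4.44 in conventional knockouts at 9 weeks, against 4.34, 4.05 and 3.79 in wild types (0.93 ± 0.28, limma adjusted p = 0.0174). At 12 weeks it read 4.82, 4.58 and 5.86 in SPF knockouts, against 4.11, 4.24 and 3.95 in wild types (0.99 ± 0.28, limma adjusted p = 0.0077). Neither pair of groups overlapped. The 9-week call was lost without replicate 1 or 2 of the conventional knockouts or replicate 3 of the wild types (adjusted p up to 0.114), and without replicate 3 of the SPF knockouts the 12-week difference was 0.61 (limma adjusted p = 0.0846). Conventional knockouts at 12 weeks, at 3.85, 4.27 and 4.17, overlapped the wild types.

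*Tbx21*, the Th1 lineage factor, moved by far less on this array. It read 3.38, 3.31 and 3.80 in SPF knockouts at 12 weeks, against 3.27, 3.15 and 2.87 in wild types, a difference of 0.40 ± 0.15 (limma adjusted p = 0.0423). The groups were separated by a narrow gap, and the call was lost without replicate 1 or 3 of the SPF knockouts or replicate 2 or 3 of the wild types, the difference then being as low as 0.25. In conventional knockouts at 9 weeks it read 3.81, 3.31 and 3.70, against 3.34, 3.22 and 3.33 in wild types, which overlap, and the difference of 0.31 ± 0.15 did not pass (limma adjusted p = 0.141). Against the 7-week conventional knockouts, at 2.95, 3.02 and 3.04, the 9-week animals were higher by 0.61 ± 0.15 (limma adjusted p = 0.0145). Without replicate 1 of either age group that call was lost.

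Both interferon regulatory factors stood well above the array medians in all groups. *Irf1*, a direct target of interferon gamma signalling, read 11.05, 10.97 and 10.52 in conventional knockouts, 10.40, 10.51 and 10.83 in SPF knockouts and 9.66, 9.76 and 9.79 in wild types at 9 weeks. Every knockout array lay above every wild-type array. The difference from wild types was 1.11 ± 0.17 in conventional knockouts (limma adjusted p = 0.000133) and 0.84 ± 0.17 in SPF knockouts (limma adjusted p = 0.00376). At 12 weeks *Irf1* read 10.16, 10.22 and 10.29 in conventional knockouts, 10.82, 10.76 and 11.05 in SPF knockouts and 9.75, 9.48 and 9.54 in wild types. These 3 groups did not overlap, with SPF knockouts 1.29 ± 0.17 above wild types (limma adjusted p = 1.94e-05). The conventional knockouts, 0.63 ± 0.17 above wild types, did not pass (limma adjusted p = 0.0789).

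*Irf8*, the myeloid factor with 2 GAS matches before the first of its 2 annotated starts, read 10.68, 10.50 and 10.19 in conventional knockouts at 9 weeks. It read 9.80, 9.94 and 10.19 in SPF knockouts and 9.24, 9.08 and 9.06 in wild types of that age. Its differences from wild types were 1.33 ± 0.17 (limma adjusted p = 1.77e-05) and 0.85 ± 0.17 (limma adjusted p = 0.00361) in conventional and SPF knockouts. At 12 weeks the SPF knockouts, at 10.23, 10.20 and 10.32, lay 1.44 ± 0.17 above the wild types, at 9.16, 8.42 and 8.84 (limma adjusted p = 5.58e-06). *Irf8* was the 1 gene of the 10 called in conventional knockouts at 12 weeks, which read 9.41, 9.51 and 9.73 (0.75 ± 0.17, limma adjusted p = 0.0463). That call was lost in 19 of the 27 fits that left out 1 array, although the difference stayed between 0.55 and 0.92. The conventional knockouts averaged 9.55 at 12 weeks and 9.46 at 7 weeks, where *Irf8* was not called. Wild types averaged 9.08, 9.13 and 8.81 at 7, 9 and 12 weeks. The second probe set (1448452_at) gave larger differences in both main contrasts, 1.51 ± 0.17 in conventional knockouts at 9 weeks and 1.61 ± 0.17 in SPF knockouts at 12 weeks. In conventional knockouts at 12 weeks it gave 0.72 ± 0.17 and did not pass (limma adjusted p = 0.0556, beside 0.442% of all probe sets).

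**Figure D3:**
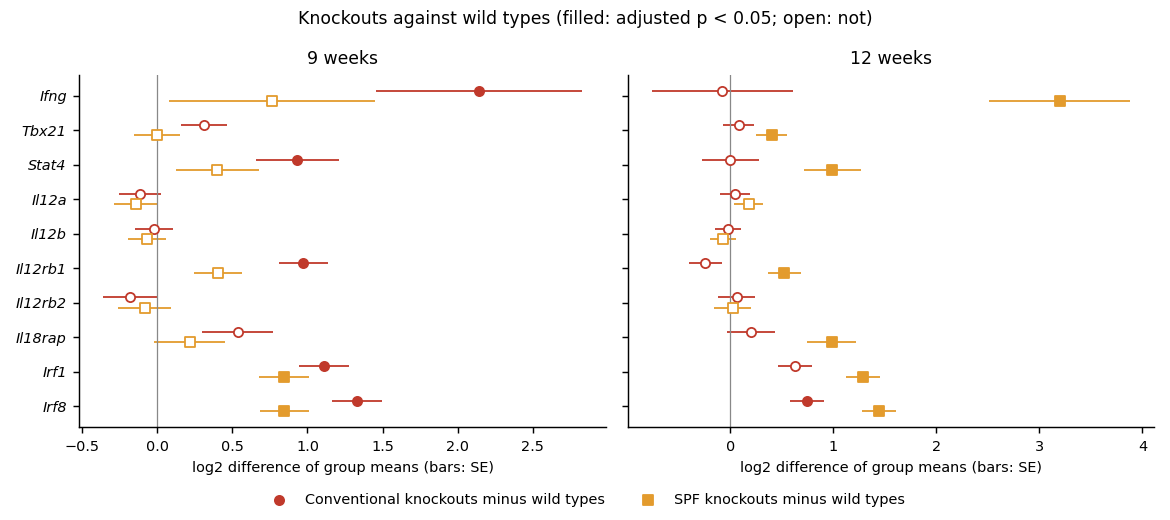
Log2 difference from wild types of the same age (x axis; error bars are SE from the limma fit) for the 10 genes (y axis) at 9 and 12 weeks, with conventional knockouts as red circles and SPF knockouts as orange squares; filled symbols passed an adjusted p of 0.05. At 9 weeks the conventional knockouts hold 5 filled symbols and the SPF knockouts 2, and at 12 weeks they hold 1 and 7.

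Among comparisons of groups of the same age, the 10 genes were called most often where the largest share of all genes was called. At 9 weeks, 5 of 10 were higher in conventional knockouts than in wild types (*Ifng*, *Stat4*, *Il12rb1*, *Irf1*, *Irf8*), where 24.0% of all genes were called in either direction. The median difference of the 10 was 0.73, against 0.00 over all genes. In SPF knockouts against wild types at 9 weeks, 2 of 10 were higher, beside 11.8% of all genes. Between conventional and SPF knockouts at 9 weeks limma called 0 of 10 and 0% of all genes. At an unadjusted p under 0.05 there were 3 of the 10 and 8.07% of all genes, and with array weights limma called 6 of the 10. Here and below, the share of all genes called is not given for array weights, compared arrays alone or left-out arrays. Those counts cannot be set beside it. At 12 weeks, 1 of 10 was higher in conventional knockouts than in wild types, beside 0.451%. In SPF knockouts against wild types at 12 weeks, 7 of 10 were higher, beside 34.8%, with a median difference of 0.75 against 0.02 over all genes. Without replicate 3 of the SPF knockouts 4 of the 10 were called, and on the compared arrays alone 2. Between conventional and SPF knockouts at 12 weeks, 6 of 10 were lower in conventional animals, beside 24.6%, with 3 called without that same SPF array and 0 on the compared arrays alone. The conventional count at 9 weeks was 3 without replicate 1 of the conventional knockouts or replicate 3 of the wild types.

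At 7 weeks limma called none of the 10 genes in any of the 3 comparisons. The shares of all genes called were 0.506% for conventional knockouts and 0.0550% for SPF knockouts against wild types, and 0.269% between the knockouts. At an unadjusted p under 0.05, *Irf8* alone passed in each knockout group against wild types, and no member passed between the housing conditions. Of the 18193 genes, 1994, 921 and 968 were under that threshold in these 3 comparisons, so 1 of 10 is near the share of all genes. *Irf8* differed from wild types by 0.39 ± 0.17 in conventional and 0.38 ± 0.17 in SPF knockouts.

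Across ages, conventional knockouts at 9 against 7 weeks had 6 of 10 genes higher, beside 10.4% of all genes: *Tbx21*, *Stat4*, *Il12rb1*, *Il18rap*, *Irf1* and *Irf8*. *Ifng* differed by 1.94 ± 0.69 there without passing (limma adjusted p = 0.0723). The count was 2 without replicate 1 of the 9-week group and 3 without replicate 1 of the 7-week group. At 12 against 9 weeks conventional knockouts had 3 of 10 lower (*Il12rb1* by -0.87 ± 0.16, *Irf1* by -0.62 ± 0.17, *Irf8* by -0.90 ± 0.17), beside 7.34%, and *Ifng* at -2.19 ± 0.69 missed the threshold (limma adjusted p = 0.0529). In SPF knockouts limma called none of the 10 at 9 against 7 weeks, beside 0.726% of all genes, nor at 12 against 9 weeks, beside 0%. At an unadjusted p under 0.05 these held 2 and 4 of the 10, the second including *Ifng* at 2.46 ± 0.69, beside 15.2% and 18.9% of all genes. With array weights limma called 2 and 5 of the 10, and with 1 array left out up to 1 (without replicate 3 of the conventional knockouts at 7 weeks) and 4 (without replicate 2 of the SPF knockouts at 12 weeks). In wild types limma also called none, beside 0.00550% at 9 against 7 weeks and 0% at 12 against 9 weeks, with 0 and 1 of the 10 at an unadjusted p under 0.05, beside 3.99% and 12.7% of all genes. That 1 gene was *Il12rb1*, higher by 0.34 ± 0.16 at 12 weeks. The other tool settings run, array weights among them, called none in wild types either.

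The 2 groups with high *Ifng* were also set against each other. Conventional knockouts at 9 weeks against SPF knockouts at 12 weeks gave 0 of 10 calls by limma, beside 0.0110% of all genes, none at an unadjusted p under 0.05, beside 8.19% of all genes, and 2 with array weights. The *Ifng* difference between them was -1.08 ± 0.69. Whether the gap between groups changed with age was tested directly. The conventional minus SPF difference fell between 9 and 12 weeks for 7 of 10 genes, beside 18.6% of all genes: *Ifng* changed by -4.65 ± 0.97 (limma adjusted p = 0.00394), *Stat4* by -1.52 ± 0.39 and *Il12rb1* by -1.33 ± 0.23. Fitted on the compared arrays alone, this contrast called 0 of the 10. Conventional knockouts minus wild types gained from 7 to 9 weeks for *Irf8* among the 10 (0.94 ± 0.23), beside 2.01%. For that contrast 5 of the 10 had an unadjusted p under 0.05, beside 18.7% of all genes, with limma calling 6 with array weights and 3 on the compared arrays alone. The same difference fell from 9 to 12 weeks for *Il12rb1* (-1.21 ± 0.23), beside 1.82%, with 4 of the 10 at an unadjusted p under 0.05, beside 21.6%. There limma called 3 with array weights. Between these ages *Il12rb1* changed by -0.87 ± 0.16 in conventional knockouts and, without passing, by 0.34 ± 0.16 in wild types. For SPF knockouts minus wild types from 9 to 12 weeks limma called 0 of 10, beside 0%, with 3 at an unadjusted p under 0.05, beside 13.3% of all genes, and 2 called with array weights.

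The order of the 9 group means put the same groups on top for *Ifng*, *Stat4*, *Il12rb1* and *Irf8*, and most neighbours in the order overlapped. *Ifng* ran from SPF knockouts at 12 weeks (6.01 ± 1.89) to conventional knockouts at 9 weeks (4.92 ± 1.78) and SPF knockouts at 9 weeks (3.54 ± 0.92, SD, n = 3 each), and the 6 other groups had means of 2.73 to 2.98. Every neighbouring pair in that order overlapped. *Stat4* had the same leading 3 groups, at 5.09 ± 0.68, 4.99 ± 0.49 and 4.46 ± 0.37. For *Il12rb1* the conventional knockouts at 9 weeks came first (4.06 ± 0.22), then the SPF knockouts at 12 weeks (3.95 ± 0.39), which overlapped them. *Irf8* also had the conventional knockouts at 9 weeks first (10.46 ± 0.25), followed by SPF knockouts at 12 weeks (10.25 ± 0.06) and at 9 weeks (9.98 ± 0.20). These 2 SPF groups did not overlap each other, with a lowest array of 10.20 at 12 weeks and a highest of 10.19 at 9 weeks. The spread within groups differed between genes: in SPF knockouts at 12 weeks the SD was 1.89 for *Ifng* and 0.06 for *Irf8*.

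The genes around the axis were read from lists chosen with earlier results of these data known, so their direction is not independent evidence. Their counts in the main contrasts stand beside the 24.0% of all genes called in conventional knockouts at 9 weeks and the 34.8% in SPF knockouts at 12 weeks. For SPF knockouts at 9 weeks and conventional knockouts at 12 weeks the shares were 11.8% and 0.451%. Of 20 interferon gamma target genes, 20 rose in conventional knockouts at 9 weeks, 16 in SPF knockouts at 9 weeks, 6 in conventional knockouts at 12 weeks and 20 in SPF knockouts at 12 weeks. Their median difference from wild types in these 4 comparisons was 2.80, 1.91, 0.92 and 2.87. *Iigp1*, a GTPase that attacks the vacuoles of intracellular microbes, averaged 11.85 ± 0.38 in conventional knockouts and 6.53 ± 0.19 in wild types at 9 weeks (SD, n = 3 each). The immunoproteasome subunits rose with it, *Psmb9* by 3.01 ± 0.25 and *Psmb8* by 2.87 ± 0.27 in that contrast, and the peptide transporter *Tap1* by 3.46 ± 0.29 in SPF knockouts at 12 weeks. *Ifng* itself did not pass in SPF knockouts at 9 weeks or conventional knockouts at 12 weeks. Whether targets and *Ifng* differed in their response was not tested.

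Of 12 Th1 effector and homing genes, 7 rose in conventional knockouts at 9 weeks and 7 in SPF knockouts at 12 weeks, with none lower in either. *Gzmb*, the cytotoxic protease granzyme B, differed by 3.45 ± 0.31 and 2.89 ± 0.31 in these contrasts, and the chemokine *Ccl5* by 2.65 ± 0.37 and 2.80 ± 0.37. *Cxcr6*, a homing receptor of activated T cells, differed by 2.42 ± 0.42 and 1.88 ± 0.42. The list of other inducing cytokines also held the inhibitor *Il18bp* and the receptor *Cd40*. Of its 12 measured genes, 5 rose and 2 fell at 9 weeks, and 6 rose and 1 fell at 12 weeks. *Il18bp* and *Cd40* were among the 5 that rose at 9 weeks. *Il18bp*, the soluble inhibitor of interleukin-18, rose by 2.76 ± 0.28 in conventional knockouts at 9 weeks, whereas *Il18* fell by 1.35 on the log2 scale. *Il15*, which sustains NK cells, fell by 1.35 in SPF knockouts at 12 weeks.

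The receptor list, and the T helper list below, had counts near the shares of all genes called in the 2 main contrasts. So did the list of T-bet partners in SPF knockouts at 12 weeks. Of 9 measured receptor genes, 3 rose in each of these 2 contrasts and none fell: *Il18r1*, the partner chain of *Il18rap* (0.77 ± 0.26 at 9 weeks), *Il15ra* (0.70 ± 0.16) and *Il21r* (0.70 ± 0.24). Of 9 kinases, STATs and their brakes, 5 rose and 1 fell in conventional knockouts at 9 weeks, and 5 rose in SPF knockouts at 12 weeks. The feedback inhibitors led them, *Socs3* by 3.44 ± 0.45 and *Socs1*, which blocks interferon gamma signalling, by 2.11 ± 0.41 at 9 weeks. Of 9 T-bet partners and lymphocyte factors, 4 and 3 rose in the 2 contrasts, among them *Prdm1* by 1.31 ± 0.25 and 1.60 ± 0.25. *Eomes*, the T-box relative of T-bet, rose by 0.45 ± 0.10 in SPF knockouts at 12 weeks. Of 9 other interferon regulatory factors and IRF8 partners, 4 and 5 rose, including *Spi1*, which encodes the IRF8 partner PU.1 (1.34 ± 0.32 and 1.36 ± 0.32), and *Batf3*, a factor of cross-presenting dendritic cells (0.83 ± 0.15 and 0.69 ± 0.15). Of 9 Th2, Th17 and regulatory T cell genes, 3 and 4 rose. They were *Il10*, *Ctla4* and *Gata3* in both, and *Il17a* in SPF knockouts at 12 weeks (1.32 ± 0.35). *Il10* is the gene targeted in the knockouts, and its probe set read higher in all 18 knockout arrays, at every age, than in any wild-type array. Its calls are therefore not read as a response of regulatory T cells.

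**Figure D4:**
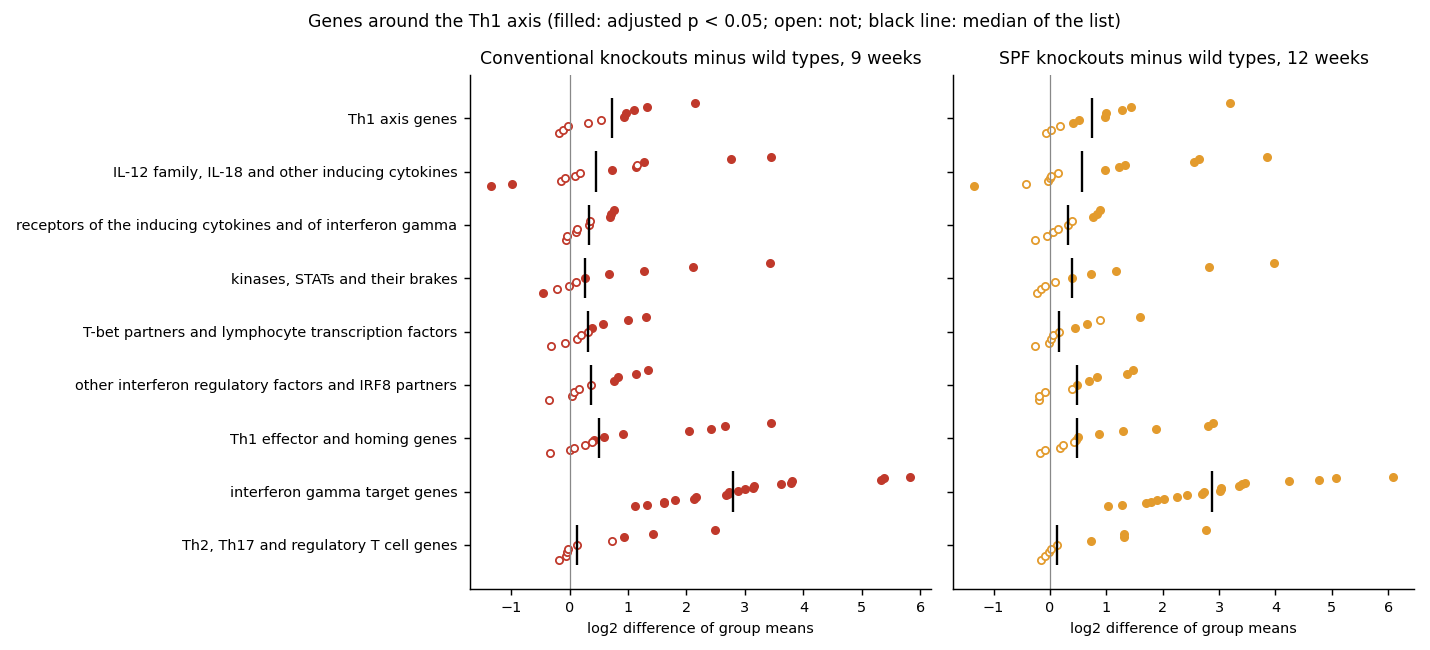
Log2 difference from wild types (x axis) of each measured gene in the Th1 axis and 8 surrounding lists (y axis), for conventional knockouts at 9 weeks on the left and SPF knockouts at 12 weeks on the right; filled points passed an adjusted p of 0.05 and black lines are list medians. The 20 interferon gamma target genes are all filled in both panels, with medians of 2.80 and 2.87, while the medians of the other lists lie nearer to 0.

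Markers of several cell types moved with these results, while those of B cells and plasma cells mostly did not, as given at the end. The shares of all genes called were 24.0% in conventional knockouts at 9 weeks and 34.8% in SPF knockouts at 12 weeks. T cell markers rose for 7 of 13 in conventional knockouts at 9 weeks and 8 of 13 in SPF knockouts at 12 weeks. Their mean was 5.11 to 5.45 in conventional knockouts and 4.57 to 4.62 in wild types at 9 weeks, and 4.72 to 5.67 in SPF knockouts and 4.45 to 4.55 in wild types at 12 weeks. NK and group 1 innate lymphocyte markers rose for 4 and 3 of 8 in the 2 contrasts. The 12-week count was near the share of all genes called. Their mean was 4.82 to 5.24 in conventional knockouts and 3.99 to 4.01 in wild types at 9 weeks. At 12 weeks it was 4.55 to 5.08 in SPF knockouts and 3.94 to 4.10 in wild types. Macrophage and monocyte markers rose for 11 of 12 in both contrasts. Their mean was 7.98 to 8.58 in conventional knockouts and 6.78 to 7.22 in wild types at 9 weeks, and 7.78 to 8.96 in SPF knockouts and 6.80 to 6.95 in wild types at 12 weeks. Dendritic cell markers rose for 3 and 4 of 10, near the shares of all genes called. The SPF array at 12 weeks with the lowest *Ifng*, replicate 2, also had the lowest mean of its group for T cells (4.72) and neutrophils (5.14). The part of these cells in the Th1 axis results was not tested.

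**Figure D5:**
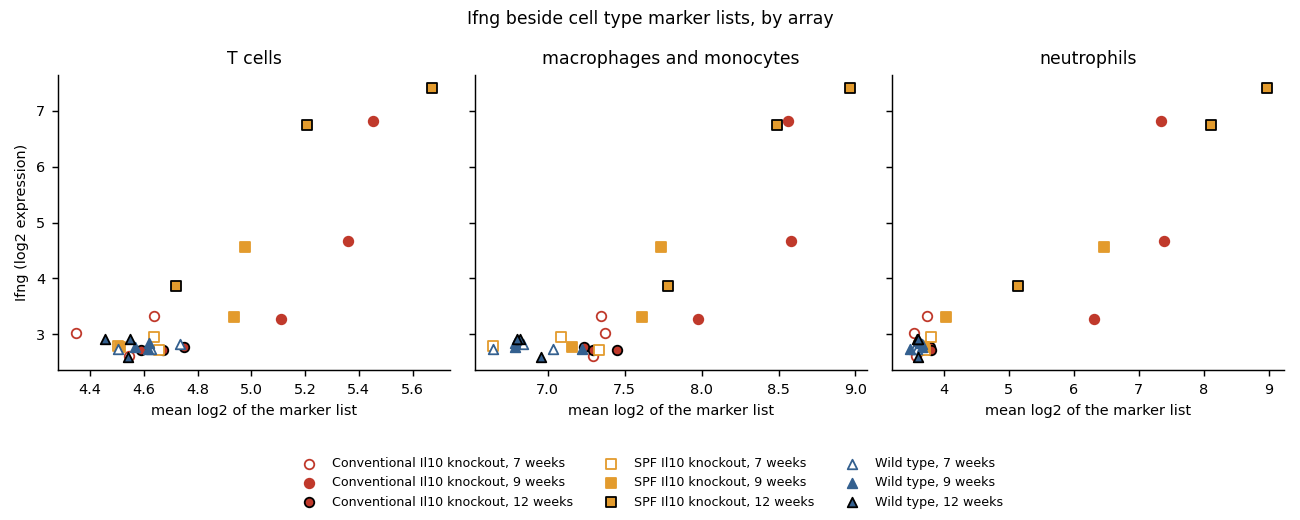
*Ifng* (y axis, log2 expression) against the mean log2 of 3 marker lists (x axes) in all 27 arrays, with shape and colour for the group, open symbols for 7 weeks and black outlines for 12 weeks. The arrays with *Ifng* above 4 also lie toward the right for all 3 lists, and conventional knockouts at 9 weeks hold 1 array with high markers and *Ifng* at 3.27.

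Genes with the most similar profile over the 27 arrays were named by Pearson's r, as a description with no test. The arrays share their groups, so any gene high in the same groups scores well. *Ifng* was closest to *Mmp3*, *Ccl2* and *Ms4a4c* (r = 0.97 each), *Stat4* to *Cd48*, *Cd52* and *Ly86* (0.96 each), and *Il18rap* to *Mmp9* (0.95), *Ifitm6* and *Trem1* (0.94 each). *Tbx21* was closest to *Dok2* (0.86), *Cd247* (0.85), which encodes the CD3 zeta chain of the T cell receptor, and *Rnf183* (0.82). *Il12rb1* was closest to *Chsy1* and *Cd200r4* (0.91 each) and *Gosr2* (0.90). *Irf1* was closest to *Tap1*, *H2-DMa* and *Socs3* (0.97 each), and *Irf8* to *Tap1* (0.98), *H2-Ab1* and *Psme1* (0.97 each). For *Il12a*, *Il12b* and *Il12rb2* no gene exceeded 0.74. Among the 10 genes themselves *Irf1* and *Irf8* were the closest pair (0.97), and *Ifng* reached 0.89 with *Il18rap* and 0.88 with *Stat4*.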

How the data were processed

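Full-thickness colon RNA was hybridized to 27 Affymetrix arrays. They carry mouse probe sets, although a rat array is named in the study's design text. The authors deposited log2 expression values, normalized with affyPLM per the study's design text; its version and settings (background, summary) were not given in the sources used here. The values, 2.10 to 14.25, were used as deposited. Samples were grouped by their labels, in which the code CC was read as conventional housing by elimination.

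Of 45101 probe sets, 34945 had 1 gene symbol, 932 had several, 9160 had none and 64 were controls. Names came from the platform annotation, updated through the Entrez identifier for 34741. Each gene was represented by its brightest probe set on average, giving 18193 genes. Group means were fitted with limma 3.58.1 in R 4.3.3 on all arrays (18 residual degrees of freedom), moderated by eBayes, with Benjamini-Hochberg adjustment over all genes. For a single gene, 3 against 3 arrays could not go below p = 0.1 in an exact permutation test. Simulated data over 18193 genes, made for the 9-week contrast of conventional knockouts with wild types, gave back 91% of 100 genes shifted by 1 log2 unit, 100% of 100 shifted by 2, and 9 false calls. Each simulated gene had the same spread in all groups and independent noise. In the data the spread differed between groups, as for *Ifng* at 9 weeks (SD 1.78 in conventional knockouts, 0.06 in wild types). These rates may therefore not hold for the data.

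All 10 genes were described, and from each surrounding list up to 4 called genes with the smallest adjusted p, plus the 3 genes most like each member. The members and lists were chosen with earlier results of these data known. Replicate numbers were not used as pairs in the main fit. Promoters came from RefSeq (GRCm38.p6). Figures were drawn with matplotlib 3.10.9, and tables made with pandas 2.3.3 and NumPy 2.4.6 under Python 3.11.15. Alternatives covered normalization, filters, probe-set choice, weighting, the arrays fitted and each array left out. Arrays have no read depth; their number limits the precision.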

Additional observations from a re-analysis of the deposited data

Results flagged for a closer look

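These results stand out because the difference between groups itself changed with age by the limma test of the change, adjusted over all genes. The conventional minus SPF knockout difference moved down between 9 and 12 weeks for 7 of the 10 Th1 axis genes. The change was -4.65 ± 0.97 log2 units for *Ifng* (SE; limma adjusted p = 0.00394), -1.52 ± 0.39 for *Stat4* (0.0115), -1.33 ± 0.23 for *Il12rb1* (0.00112) and -1.18 ± 0.23 for *Irf8* (0.00297). It was -1.10 ± 0.33 for *Il18rap* (0.0259), -0.92 ± 0.23 for *Irf1* (0.0111) and -0.63 ± 0.21 for *Tbx21* (0.0415). Fitted on the compared arrays alone, none of these 7 passed. The *Tbx21* call was lost in 8 of the 27 fits that left out 1 array, and the *Il18rap* call in 6. In the conventional knockout minus wild-type difference, *Irf8* gained 0.94 ± 0.23 from 7 to 9 weeks (limma adjusted p = 0.0421), a call lost in 13 of those fits. *Il12rb1* changed by -1.21 ± 0.23 from 9 to 12 weeks (limma adjusted p = 0.0281), a call lost in 8 of them. Part of that change lay in the wild types: *Il12rb1* changed by -0.87 ± 0.16 in conventional knockouts and by 0.34 ± 0.16 in wild types. The wild-type change did not pass (limma adjusted p = 0.378).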

How the results depend on the processing

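No direction of a member's called difference reversed: of 1459 recomputed values over 39 such results, 1311 kept their side of the threshold and 148 lost the call. Of 760 recomputed member counts over 20 comparisons, 97 moved by more than 1.5 times. The shares of all genes called under these settings are not given, so the counts below cannot be set against them.

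With 1 array left out, the counts ranged from 3 to 6 in conventional knockouts against wild types at 9 weeks (5 with all arrays), 0 to 2 at 12 weeks (1), 4 to 7 in SPF knockouts against wild types at 12 weeks (7) and 3 to 6 between knockouts at 12 weeks (6). They were 2 to 7 in conventional knockouts at 9 against 7 weeks (6) and 2 to 6 at 12 against 9 weeks (3). In SPF knockouts they were 0 to 1 at 9 against 7 weeks and 0 to 4 at 12 against 9 weeks, with 4 without replicate 2 at 12 weeks and 1 without replicate 3 at 9 weeks. Conventional knockouts at 9 against SPF knockouts at 12 weeks gave 0 to 2. The changes in group differences gave 0 to 4 (conventional knockouts minus wild types, 7 to 9 weeks), 0 to 2 (9 to 12 weeks), 0 to 2 (SPF knockouts minus wild types) and 5 to 7 (conventional minus SPF knockouts). The count in SPF knockouts at 9 weeks stayed at 2.

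Without the dimmest 40% of genes 2 members could be tested, *Irf1* and *Irf8*. That gave 2 calls in conventional knockouts against wild types at 9 weeks, SPF knockouts against wild types at 12 weeks, conventional against SPF knockouts at 12 weeks, conventional knockouts at 9 against 7 weeks and the conventional minus SPF change, and 0 in the change of conventional knockouts minus wild types from 9 to 12 weeks. Requiring a log2 difference of at least 1 left 3 calls in conventional knockouts at 9 weeks, 0 in SPF knockouts at 9 weeks, 0 in conventional and 3 in SPF knockouts at 12 weeks, 1 between knockouts at 12 weeks, 1 in conventional knockouts at 9 against 7 weeks, 0 at 12 against 9 weeks and 0 in the change from 7 to 9 weeks. Array weights gave 6 calls between knockouts at 9 weeks, 0 in conventional knockouts at 12 weeks, 6 in conventional knockouts at 12 against 9 weeks, 2 and 5 in SPF knockouts at 9 against 7 and 12 against 9 weeks, and 2 between the 2 groups with high *Ifng*. They gave 6, 3 and 2 in the changes of conventional knockouts minus wild types from 7 to 9 and 9 to 12 weeks and of SPF knockouts minus wild types.

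Fitting only the arrays compared, which leaves fewer samples for the spread, gave 0 in conventional and 2 in SPF knockouts against wild types at 12 weeks, 0 between knockouts at 12 weeks, 3 in the change from 7 to 9 weeks and 0 in the conventional minus SPF change. *Ifng* then had an adjusted p of 0.0586 at 9 weeks and 0.0556 in SPF knockouts at 12 weeks. Testing all non-control probe sets gave 0 in the change from 7 to 9 weeks. Reading the dimmer of 2 probe sets, an alternative chosen after seeing the data, gave 0 in conventional knockouts at 12 weeks and 2 in the change of conventional knockouts minus wild types from 9 to 12 weeks. Except where a setting tests fewer genes or samples, the cause was not tested.

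With the replicate number as a block, the count was 0 in conventional knockouts against wild types at 12 weeks, and 0 in both changes of conventional knockouts minus wild types; *Irf8* at 12 weeks had an adjusted p of 0.0614. Deviations of same-numbered samples from their group means had no common direction (r from -0.438 to 0.264). Differently numbered samples were not compared, so a batch shared by number was not tested. Signal near the array's low end limits what can be read for *Il12a*, *Il12b*, *Il12rb2* and *Tbx21*, and the size of the *Ifng* and *Il12rb1* differences.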

Other observations

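Smooth muscle markers were lower in the groups where *Ifng* was higher, but not only there. Of 8 smooth muscle markers, 6 fell in conventional knockouts against wild types at 9 weeks and 8 in SPF knockouts against wild types at 12 weeks. Their mean was 11.17 to 11.31 in conventional knockouts and 11.81 to 11.99 in wild types at 9 weeks, and 9.93 to 11.28 in SPF knockouts and 11.67 to 11.73 in wild types at 12 weeks. In SPF knockouts at 9 weeks, where *Ifng* did not pass, it was 10.88 to 11.61, also below all wild types of that age. Of 12 colon epithelium markers, 3 fell and 1 rose at 9 weeks and 4 fell at 12 weeks in these contrasts, beside 24.0% and 34.8% of all genes called. B cell markers gave 0 higher and 1 lower of 8 at 9 weeks by limma, and 0 of 8 at 12 weeks, with 1 at an unadjusted p under 0.05 in each. Plasma cell markers gave 0 of 6 at 9 weeks, also 0 at an unadjusted p under 0.05, and 1 of 6 at 12 weeks. Markers of pancreas, liver and skeletal muscle averaged 4.94 to 6.56 in wild types at 7 weeks and 4.54 to 5.05 in the other 8 groups.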
